A study of Rattus norvegicus with 10 samples.

Results

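The caseins and the other major proteins of milk were compared between mammary glands of ACI and BN rats. Members were probe sets annotated to *Csn1s1*, *Csn2*, *Csn3*, *Csn1s2a*, *Csn1s2b*, *Lalba*, *Glycam1* or *B4galt1* alone, by a current or a former symbol, whatever their values. Of these 8 genes, 6 were measured, by 8 of the 31042 probe sets tested, and no probe set was named for *Csn1s2a* or *Csn1s2b* alone in the annotation used here. Each of *Csn1s1*, *Csn2*, *Csn3*, *Lalba* and *Glycam1* had 1 probe set and *B4galt1* had 3. The whole array named 14217 genes.

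Mammary gland RNA of 5 ACI and 5 BN rats was measured on short-oligonucleotide Affymetrix arrays that cover the rat genes, each rat on an array of its own. All 10 rats were E2 treated, with 17β-estradiol released continuously from implants for 12 weeks, and were injected with BrdU shortly before they were killed, so no untreated gland stands beside these values. The ACI rats (ACI/SegHsd, females) are labelled as 21 weeks old, and the BN rats (Brown Norway) as 9 weeks old when treatment began. The study's methods give females of both strains, with implants placed at 9 weeks of age. Both are inbred strains, and ACI rats develop mammary cancer under E2 whereas BN rats resist it. The arrays of each strain were deposited as a separate set, so strain and deposit cannot be told apart, and the extraction text of the BN arrays names ACI rats. Animal IDs opened with S for rats 1 to 3 and with H for rats 4 and 5 of each strain. Values are log2 expression per probe set, and differences are ACI minus BN.

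Milk proteins are made by the luminal secretory cells of the mammary alveoli. The caseins, which are phosphorylated and bind calcium, assemble into micelles: αs1-casein (*Csn1s1*), β-casein (*Csn2*) and the αs2-caseins (*Csn1s2a*, *Csn1s2b*) form the body of the micelle, and κ-casein (*Csn3*) keeps it in suspension. α-Lactalbumin (*Lalba*), a whey protein, binds the Golgi enzyme β-1,4-galactosyltransferase 1 (*B4galt1*) and so turns it into lactose synthase. *Glycam1* encodes a mucin-like glycoprotein that is secreted into milk and is also made by the high endothelial venules of lymph nodes. Prolactin, acting through its receptor, JAK2 and STAT5, is the main inducer of casein transcription, together with glucocorticoid and the epithelial factor ELF5.

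The promoters of the measured secreted proteins are shown because the casein genes are a textbook target of STAT5, which recognizes the spacing TTCNNNGAA. Each sequence below is the 250 bases before the annotated transcription start (RefSeq, build GRCr8), 5′ to 3′, and capitals mark TTCNNNGAA and AATTAGCAT:
Csn1s1 (chr14:20638850-20639099, minus strand): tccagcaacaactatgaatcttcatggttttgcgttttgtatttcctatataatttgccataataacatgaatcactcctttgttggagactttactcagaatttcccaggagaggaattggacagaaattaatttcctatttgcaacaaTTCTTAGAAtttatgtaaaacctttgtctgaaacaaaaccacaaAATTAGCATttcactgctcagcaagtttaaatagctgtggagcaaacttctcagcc
Csn2 (chr14:20601574-20601823, plus strand): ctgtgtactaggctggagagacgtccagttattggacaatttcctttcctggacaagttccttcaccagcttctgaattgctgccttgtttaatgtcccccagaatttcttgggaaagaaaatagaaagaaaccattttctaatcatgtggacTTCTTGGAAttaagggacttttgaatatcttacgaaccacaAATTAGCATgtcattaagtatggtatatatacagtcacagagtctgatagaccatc
Glycam1 (chr7:136561300-136561549, minus strand): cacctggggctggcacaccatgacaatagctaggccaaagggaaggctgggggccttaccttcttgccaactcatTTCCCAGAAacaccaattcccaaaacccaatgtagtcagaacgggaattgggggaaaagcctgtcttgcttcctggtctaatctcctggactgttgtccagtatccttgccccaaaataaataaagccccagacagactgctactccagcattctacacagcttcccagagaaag
Csn3 (chr14:20439831-20440080, minus strand): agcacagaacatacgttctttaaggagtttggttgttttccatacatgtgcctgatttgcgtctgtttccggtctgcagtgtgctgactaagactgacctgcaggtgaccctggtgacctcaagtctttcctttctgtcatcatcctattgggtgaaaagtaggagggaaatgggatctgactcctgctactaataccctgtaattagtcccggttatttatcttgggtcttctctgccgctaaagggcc
Lalba (chr7:131507073-131507322, minus strand): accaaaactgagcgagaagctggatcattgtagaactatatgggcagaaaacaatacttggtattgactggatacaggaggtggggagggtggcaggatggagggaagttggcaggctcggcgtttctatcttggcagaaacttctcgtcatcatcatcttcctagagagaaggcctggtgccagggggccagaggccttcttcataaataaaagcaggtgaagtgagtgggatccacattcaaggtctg

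In *Csn1s1* the TTCNNNGAA match lies at bases -100 to -92 from the start, and in *Csn2* at -97 to -89. The promoters of the αs2-caseins, which have no values here, hold one at much the same place, -102 to -94 in *Csn1s2a* and -100 to -92 in *Csn1s2b*. In *Glycam1* the match is farther out, at -175 to -167, and in *B4galt1* nearer, at -73 to -65. No match was found in this window of *Csn3* or *Lalba*. The letters, which read alike on both strands, occur in 7.67% of the 33469 RefSeq promoters of this length and in 6 of the 8 promoters searched. The 9 bases AATTAGCAT, picked after the sequences had been read and searched on both strands, stand in *Csn1s1*, *Csn2* and *Csn1s2a* and in 0.242% of all promoters. A C/EBP-like spacing, TTNNGNAAT, matched on either strand in 10.9% of all promoters and in 1 of the 8, *Glycam1*, where it does not overlap the TTCNNNGAA match. The octamer ATGCAAAT was in 1.56% of all promoters and in 0 of the 8. The promoter of *B4galt1*, an enzyme of most tissues, differed in composition from the rest, with a GC content of 72.0% and 21 CpG against 34.4% and 1 in *Csn1s1*; the median over all promoters was 51.2% and 5. A match is a description of the letters and not a site of binding, which was not measured.

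Of the 8 probe sets, 4 were called higher in ACI (*Glycam1*, *Csn1s1*, *Csn2* and *Csn3*, by 0.32 to 0.51 on the log2 scale) and 1 higher in BN (*Lalba*, by -0.27), at an adjusted p under 0.05 in limma with the Benjamini-Hochberg method over all probe sets. *B4galt1* was not called, and its other 2 probe sets stood at the lowest value of the scale, 2.23, on every array. Over all probe sets 12.7% were called, 6.79% higher in ACI and 5.87% higher in BN. The strains did not overlap at 4 of the 8, with ACI higher at 3 and BN higher at 1, where 6.8% and 5.47% of all probe sets did so. The exact permutation test over the 252 arrangements of 5 rats against 5, whose smallest two-sided p is 0.0079, was run on the 6 probe sets that varied, and its p-values are not adjusted. In whole glands, fewer secretory cells and less RNA per cell cannot be told apart.

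**Figure D1:**
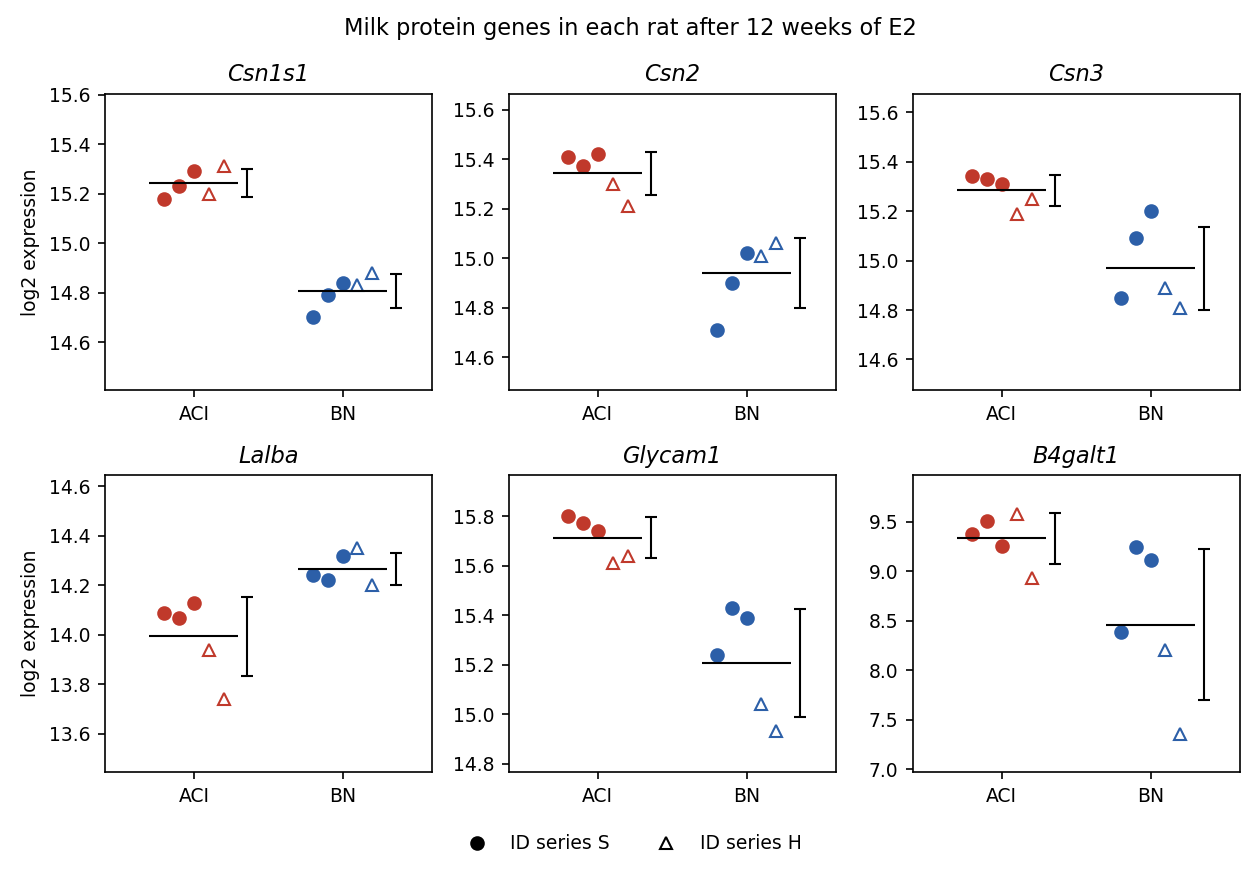
Log2 expression (vertical axis) of the 6 milk protein genes in each ACI (red) and BN (blue) rat, 5 rats per strain. Filled circles are rats of ID series S and open triangles rats of series H; horizontal lines are strain means and bars to their right ± SD. All vertical axes are cut and span the same log2 range except that of *B4galt1*, which spans more. The ACI rats lie above the BN rats for *Csn1s1*, *Csn2* and *Glycam1* and below them for *Lalba*, and the strains overlap for *Csn3* and *B4galt1*.

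*Csn1s1* varied little from rat to rat within a strain. The ACI rats 1 to 5 measured 15.18, 15.23, 15.29, 15.20 and 15.31, and the BN rats 1 to 5 measured 14.70, 14.79, 14.84, 14.83 and 14.88. Every ACI rat was above every BN rat, with 0.30 between the lowest ACI and the highest BN value. The means were 15.24 ± 0.0563 and 14.81 ± 0.0683 (SD, n = 5 each), a difference of 0.43 with a 95% interval of 0.35 to 0.52 (limma, adjusted p = 0.000284), or 1.35-fold (1.27 to 1.44). The exact permutation p was 0.0079.

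*Csn2* followed the same order of strains. The ACI values were 15.41, 15.37, 15.42, 15.30 and 15.21, and the BN values 14.71, 14.90, 15.02, 15.01 and 15.06. The strains were again apart, by 0.15, with the lowest value in BN rat 1. The difference was 0.40 (95% interval 0.24 to 0.57), from means of 15.34 ± 0.0876 and 14.94 ± 0.142 (SD, n = 5 each), which is 1.32-fold (1.18 to 1.48, limma adjusted p = 0.00836). The exact permutation p was 0.0079.

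*Csn3* lies in the same gene cluster on chromosome 14 but apart from *Csn2* and *Csn1s1*, which are neighbours on opposite strands. Its ACI values were 15.34, 15.33, 15.31, 15.19 and 15.25, and its BN values 14.85, 15.09, 15.20, 14.89 and 14.81. The strains overlapped, since BN rat 3 was above ACI rat 4. The means were 15.28 ± 0.0631 and 14.97 ± 0.169 (SD, n = 5 each), and the difference was 0.32 (95% interval 0.14 to 0.50), or 1.24-fold, with limma adjusted p = 0.0332 and an exact permutation p of 0.0159. The call did not stand without any one of the 5 ACI rats or of BN rats 1, 4 and 5 (limma adjusted p = 0.0532 to 0.0808), and it stood without BN rat 2 or BN rat 3 (limma adjusted p = 0.0422 and 0.00744).

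*Lalba* ran the other way. The ACI rats measured 14.09, 14.07, 14.13, 13.94 and 13.74, and the BN rats 14.24, 14.22, 14.32, 14.35 and 14.20. All 5 BN rats were above all 5 ACI rats, though by only 0.07, and the lowest values were in the ACI rats of series H. The means were 13.99 ± 0.159 and 14.27 ± 0.0654 (SD, n = 5 each), a difference of -0.27 (95% interval -0.44 to -0.10), so that BN was 1.21-fold higher (1.07 to 1.36). Its limma adjusted p of 0.0492 was just inside the threshold, and its exact permutation p was 0.0079. Without ACI rat 5 the adjusted p was 0.0328, and leaving out any other single rat ended the call, with adjusted p-values up to 0.117 and BN higher each time.

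The contrast between *Lalba* and the caseins was also read within each array, where the overall level of the array drops out. There, *Lalba* minus *Csn2* was -1.32, -1.30, -1.29, -1.36 and -1.47 in the ACI rats and -0.47, -0.68, -0.70, -0.66 and -0.86 in the BN rats. The 5 rats of each strain did not overlap, and the mean difference was -1.35 ± 0.0733 in ACI against -0.67 ± 0.139 in BN (SD, n = 5 each). *Lalba* minus *Csn1s1* ranged from -1.57 to -1.09 in ACI and from -0.68 to -0.46 in BN, and *Lalba* minus *Csn3* from -1.51 to -1.18 and from -0.88 to -0.54. The change between strains was unequal for *Lalba* and each casein, by -0.71 to -0.59 on the log2 scale. Every BN rat was higher in *Lalba*, and every ACI rat higher in *Csn1s1* and *Csn2*. Differences between *Lalba* and these caseins therefore had to separate the strains, and the separation is no further support. For *Csn3* the strains overlapped by less than the gap for *Lalba*, so separation was fixed there too. *Csn2* minus *Csn3* did not separate the strains, at -0.04 to 0.11 in ACI and -0.19 to 0.25 in BN, nor did *Csn1s1* minus *Csn2*, at -0.23 to 0.10 and -0.18 to -0.01. These differences reuse the values above and were not tested again, and they say nothing of the amounts of one transcript against another.

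**Figure D2:**
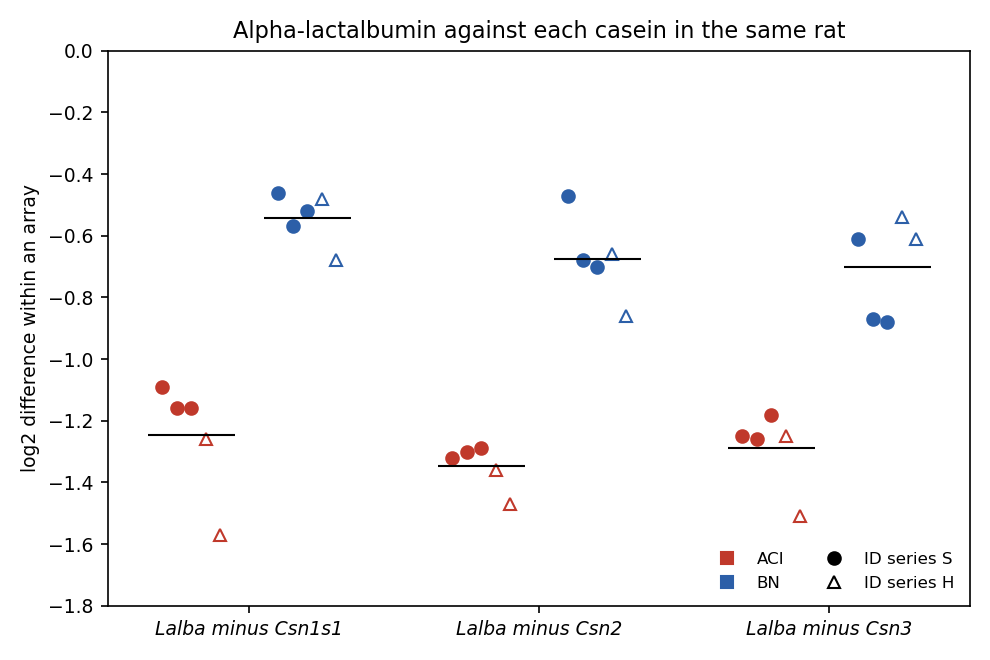
Difference in log2 expression within an array (vertical axis) between *Lalba* and each of 3 caseins (horizontal axis) in ACI (red) and BN (blue) rats, 5 per strain; filled circles are ID series S, open triangles series H, and lines are strain means. All ACI rats lie between -1.57 and -1.09 and all BN rats between -0.88 and -0.46.

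*B4galt1*, the catalytic partner of α-lactalbumin, was measured by 1 probe set above the lowest value. Its ACI values were 9.38, 9.51, 9.26, 9.58 and 8.93, and its BN values 8.39, 9.25, 9.11, 8.20 and 7.36. BN rats 2 and 3 lay within the ACI range, and BN rat 5 had the lowest value. The difference was 0.87 with an unadjusted 95% interval of 0.07 to 1.67, from means of 9.33 ± 0.256 and 8.46 ± 0.763 (SD, n = 5 each), and it was not called (limma adjusted p = 0.165; exact permutation p = 0.0397, unadjusted). The fold that the interval spans, 1.05 to 3.19, holds those of the 4 genes called higher in ACI. Without BN rats 4 and 5 the difference was 0.42 (limma adjusted p = 0.334).

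*Glycam1* was the probe set with the highest value on the arrays of ACI rats 1, 2, 3 and 5. The ACI values were 15.80, 15.77, 15.74, 15.61 and 15.64, and the BN values 15.24, 15.43, 15.39, 15.04 and 14.93. The strains were 0.18 apart, and within each strain the rats of series H were lower than those of series S. The difference was 0.51 (95% interval 0.27 to 0.74), from means of 15.71 ± 0.0829 and 15.21 ± 0.217 (SD, n = 5 each), or 1.42-fold (1.21 to 1.67), with limma adjusted p = 0.0135 and an exact permutation p of 0.0079.

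Because high endothelial venules also make *Glycam1*, their genes are given beside it. Of 5 measured genes of that cell type 1 was called (20.0%, against 17.4% of all genes), higher in BN. It was *Ccl21*, a chemokine of lymph node stroma and venules. The mean of the 5 was 3.35 to 3.78 in ACI rats and 4.11 to 4.92 in BN rats. The defining markers *Madcam1*, at 2.23 on all arrays, and *Chst4*, at 2.23 to 2.36, were at or near the lowest value of the scale. *Ccl21* differed by -3.58 and *Selp*, a selectin of endothelium, by -1.24 (not called, adjusted p = 0.076), and the part of these venules in the *Glycam1* difference was not tested.

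All these values except those of *B4galt1* sit near the top of the scale. The highest value on an array was 15.64 to 15.80 in ACI and 15.48 to 15.60 in BN rats, the casein probe sets lay 0.28 to 0.79 below it, and *Lalba* 1.16 to 1.90 below it. By position on an array, *Csn1s1*, *Csn2* and *Csn3* ranked 4 to 8 in ACI rats and 8 to 27 in BN rats, *Lalba* ranked 50 to 88 over the 10 arrays, and *B4galt1* 2220 to 6072. Signals of this height can be compressed, and how far that reduced the folds given here was not tested. Among the 70 probe sets whose mean reached 14, differences ran from -0.69 to 0.51 with a median of -0.02, and 68 of them were within 0.5 of zero. Of those 70, 7.14% were called higher in ACI and 2.86% higher in BN; *Glycam1*, *Csn1s1*, *Csn2* and *Csn3* were 4 of the 5 called higher in ACI, the other being *Rpl7a* (0.26), a ribosomal protein gene. Ordered by difference from ACI to BN, the milk protein genes took places 1 (*Glycam1*), 2 (*Csn1s1*), 3 (*Csn2*), 8 (*Csn3*) and 65 (*Lalba*) of the 70. The mean of the 100 highest probe sets was 14.32 to 14.44 in ACI and 14.35 to 14.44 in BN rats, so these ranges overlapped.

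**Figure D3:**
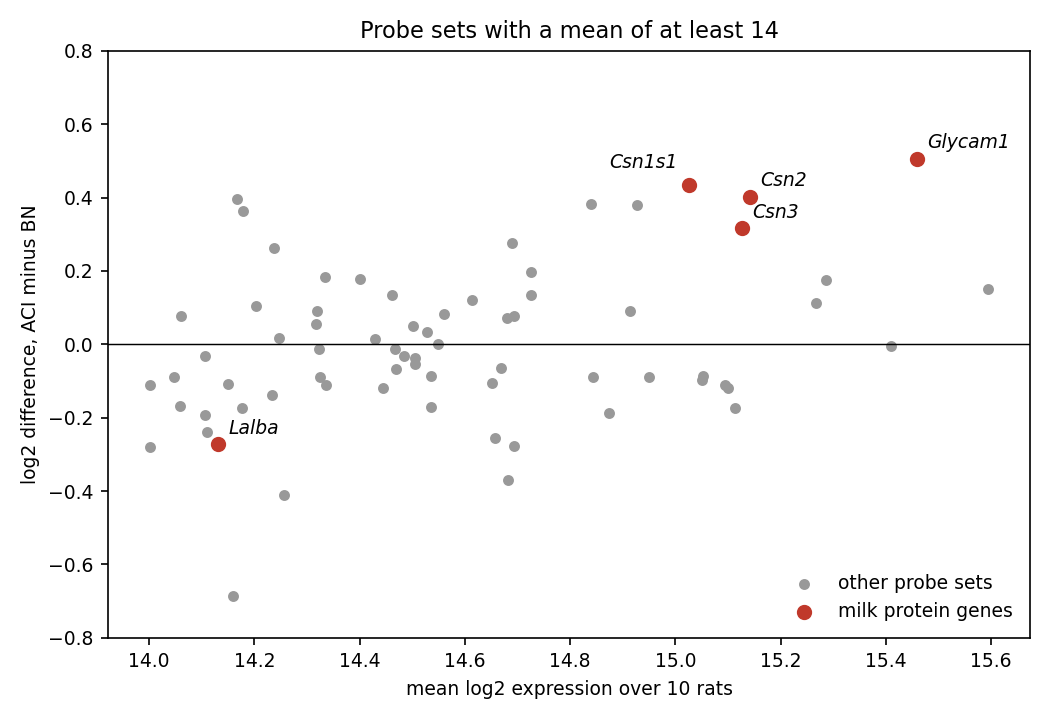
Log2 difference, ACI minus BN (vertical axis), against mean log2 expression over 10 rats (horizontal axis) for the 70 probe sets whose mean reached 14; red points are milk protein genes and grey points the others. *Glycam1* and *Csn1s1* have the highest differences, 0.51 and 0.43, and *Lalba* lies at -0.27.

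Within the animal ID series the directions were the same and the strains did not overlap for any of the 6 genes, in groups of 3 and 2 rats per strain. Groups this small separate often, since 32.4% of all probe sets did not overlap in series S and 33.9% in series H. In series S the differences were 0.46 for *Csn1s1*, 0.52 for *Csn2*, 0.28 for *Csn3*, -0.16 for *Lalba*, 0.42 for *Glycam1* and 0.47 for *B4galt1*. In series H they were 0.40, 0.22, 0.37, -0.44, 0.64 and 1.48 in the same order. With 3 rats against 3, limma called *Csn1s1*, *Csn2*, *Lalba* and *Glycam1* (adjusted p = 0.0106, 0.0278, 0.0452 and 0.0182), where it called 15.6% of all probe sets. With 2 against 2 it called 0 of the 6 (adjusted p = 0.13 to 0.437), where it called 0.322% of all probe sets. Whether a difference itself differed between the series was not tested.

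BN rats 4 and 5 stood apart from the other arrays on the second principal component over all probe sets, which held 18.9% of the variance. They had the lowest BN values of *Glycam1* and *B4galt1*, whereas for *Csn2* their 15.01 and 15.06 lay within or above the range of the other BN rats. Without both of them the differences were 0.47 for *Csn1s1* (limma adjusted p = 0.000919), 0.47 for *Csn2* (0.00917) and 0.36 for *Glycam1* (0.00927), and *Csn3* (0.24, adjusted p = 0.0991) and *Lalba* (-0.27, adjusted p = 0.108) were no longer called.

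Deviations from the strain mean show which of the genes varied together from rat to rat. *Glycam1* varied with *B4galt1* (Pearson's r = 0.88) and *Csn3* (r = 0.85), and *Csn3* with *B4galt1* (r = 0.77). Each of these genes spread more in BN than in ACI rats, and BN rats 4 and 5 were below the BN mean of each. The correlations were not computed without those rats. *Csn2* varied with *Lalba* (r = 0.57) and *Csn1s1* (r = 0.51), and *Csn2* with *Glycam1* at r = -0.15. These values are descriptions over 10 rats of 2 strains that share arrays and ID series, with no test. Of 7298 genes with a mean of at least 6, those most like *Csn2* over the 10 rats were *Ddrgk1* (r = 0.979), *Mxd4* (0.978), *C14h4orf19* (0.976), *Syne4* (0.975) and *Trabd* (0.974). Those most like *Lalba* were *Bloc1s1* and *Sin3b* (r = 0.968 each), *Safb2* (0.958), *Nbl1* (0.952) and *Cep20* (0.945), and those most like *Glycam1* were *Elovl5* (0.989), *Tmem242* (0.986), *Bspry* (0.985), *Tmem59* (0.983) and *Tpd52l1* (0.979). By deviations alone, which leave out the strain difference, the gene most like *Csn2* was *Trappc6a* (r = 0.949), that most like *Lalba* was *Hcfc1r1* (0.981) and that most like *Glycam1* was *Pals1* (0.976).

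The listed regulators of milk protein genes leaned toward ACI, though most were not called. The list holds genes of prolactin and STAT5 signalling and other factors. Of its 20 measured genes, 7 were called, each higher in ACI, and 13 were not, with a median difference of 0.50. Over all 14217 genes 8.29% were called higher in ACI and 9.12% higher in BN, and the median was 0.00. *Elf5* measured 12.02, 12.14, 11.80, 12.08 and 11.66 in ACI rats and 10.73, 11.00, 11.16, 10.91 and 10.58 in BN rats. The strains were well apart (1.06, limma adjusted p = 0.00144). *Stat5a*, which transmits the prolactin signal to the casein genes, was at 10.18, 9.86, 9.86, 10.06 and 9.10 in ACI and 7.99, 8.28, 8.78, 8.95 and 8.60 in BN rats. The lowest ACI rat was again above the highest BN rat (1.29, adjusted p = 0.0113). *Cish*, a STAT5 target that damps the signal, differed by 1.06 (adjusted p = 0.0041), *Xbp1*, a factor of secretory cells, by 1.35 (adjusted p = 0.0144) and *Id2*, required for alveolar development, by 2.13 (adjusted p = 0.0028). *Stat5b* was called as well (0.93, adjusted p = 0.0304), but lost its call when ACI rats 1, 2 or 4, or BN rats 1, 2, 4 or 5, were left out singly (adjusted p up to 0.0796). *Prlr*, the prolactin receptor, was at 9.73 to 10.73 in ACI rats and at 7.88, 8.63, 9.40, 6.27 and 5.31 in BN rats. The strains did not overlap, yet this probe set was not called (2.57, adjusted p = 0.0619; 0.0263 without BN rat 3), while a dimmer probe set of the gene was (2.65, adjusted p = 9.24e-05). *Jak2* (-0.13, adjusted p = 0.871) and the glucocorticoid receptor gene *Nr3c1* (0.45, adjusted p = 0.183) were not called.

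The other proteins secreted into milk were split. Of 14 measured, 4 were called higher in ACI and 5 higher in BN, or 64.3% against 17.4% of all genes, with a median of 0.38. *Wap*, the whey acidic protein and like the caseins near the top of the scale, was at 14.99, 15.17, 15.02, 14.92 and 15.05 in ACI and 14.74, 15.08, 14.82, 14.45 and 14.15 in BN rats. BN rat 2 lay within the ACI range, and the difference of 0.38 was not called (adjusted p = 0.184). Higher in ACI were the folate receptor *Folr1* (2.63, adjusted p = 0.000409), *Pigr*, which carries IgA into milk (1.57, adjusted p = 0.000342), the clusterin gene *Clu* (0.86, adjusted p = 0.000723) and *Mfge8*, of the milk fat globule (0.92, adjusted p = 0.021; up to 0.0587, and no longer called, if ACI rat 4, BN rat 1 or BN rat 2 was left out). Higher in BN were 5 genes, among them several of innate defence. Which cells of the gland made their RNA was not tested. *Spp1* (osteopontin) was at 2.71 to 5.19 in ACI and 13.06 to 13.98 in BN rats (-9.39, adjusted p = 1.58e-05) and *Lcn2* (lipocalin 2) at 3.40 to 5.77 and 13.02 to 13.67 (-8.35, adjusted p = 2.19e-05). *Wfdc18* was near background in all ACI rats, at 2.25 to 2.26, and at 5.21 to 9.01 in BN rats (-4.76, adjusted p = 0.00204). *Slpi*, a protease inhibitor, differed by -3.49 (adjusted p = 0.000173) and *Lyz2*, lysozyme, by -2.24 (adjusted p = 3.18e-05).

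The other genes of lactose synthesis were called about as often as genes at large. Of 14 measured genes that supply its substrates or belong to the galactosyltransferase family, 1 was called higher in ACI and 1 higher in BN, or 14.3% against 17.4% of all genes, with a median of -0.04. *Ugp2*, which makes UDP-glucose, was at 11.79 to 12.08 in ACI and 11.25 to 11.83 in BN rats (0.39, adjusted p = 0.0442), and leaving out any single rat but BN rat 2 ended the call (adjusted p up to 0.1). *B4galt6*, a lactosylceramide synthase and relative of *B4galt1*, was at 6.51 to 7.16 in ACI and 7.58 to 8.39 in BN rats (-1.27, adjusted p = 0.0055). The glucose transporter gene *Slc2a1* was not called (0.26, adjusted p = 0.669).

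Of 17 measured genes for casein phosphorylation, calcium and zinc supply and vesicle release, 3 were called, or 17.6% against 17.4% of all genes. Each of the 3 was higher in ACI, and the median of the list was 0.02. *Fam20c*, the Golgi kinase that phosphorylates caseins, was at 10.92, 10.60, 10.43, 10.77 and 10.34 in ACI and 8.50, 8.69, 9.69, 9.72 and 9.52 in BN rats. Every ACI rat was above every BN rat (1.39, adjusted p = 0.0127). *Slc30a2*, which exports zinc into milk, was at 7.17 to 7.92 in ACI rats and near background, at 2.77 to 2.99, in BN rats (4.59, adjusted p = 7.23e-07), and its second probe set gave 4.56 (adjusted p = 4.9e-08). *Orai1*, a calcium channel, overlapped between strains (1.35, adjusted p = 0.0256), and its call ended on leaving out ACI rat 1, 2, 3 or 4, or else BN rat 1, 2 or 4 (adjusted p up to 0.0656).

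Few genes around the casein cluster had signal above background. Of 13 measured genes of that stretch of chromosome 14, 8 were near background (all rats under 4) in both strains. Of the 13, 1 was called higher in ACI and 1 higher in BN, or 15.4% against 17.4% of all genes, and the median was 0.00. *Sult1d1*, a sulfotransferase gene beyond *Csn1s1*, was at 4.88 to 6.30 in ACI and 3.49 to 4.98 in BN rats (1.69, adjusted p = 0.0198; up to 0.0558, and no longer called, if ACI rat 2, 3 or 4, BN rat 1 or BN rat 2 was left out). *Jchain*, an immunoglobulin chain of plasma cells, was at 6.22 to 7.12 and 10.41 to 10.93 (-3.86, adjusted p = 2.73e-05). *Sult1e1*, between *Csn1s1* and *Sult1d1*, and *Cabs1*, near *Csn3*, were near background on every array.

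Milk fat droplets are the other product of the same cells. Of 15 measured droplet genes, 5 were called higher in ACI and 1 higher in BN, with a median of 0.56. Among all genes 8.29% were called higher in ACI and 9.12% higher in BN, and the median was 0.0. Called higher in ACI were *Thrsp* (2.55, adjusted p = 0.0189) and *Srebf1* (2.24, adjusted p = 0.00597), regulators of lipogenesis, *Gpam*, of triglyceride assembly (2.43, adjusted p = 0.00226), *Olah*, which sets the chain length of milk fatty acids (1.81, adjusted p = 0.00122), and *Acly*, which makes acetyl-CoA for lipid synthesis (0.93, adjusted p = 0.0243). *Thrsp* lost its call if ACI rat 2, ACI rat 4 or BN rat 2 was left out (adjusted p up to 0.053). *Acly* lost it on leaving out any of ACI rats 2 to 5, BN rat 1 or BN rat 4 (adjusted p up to 0.0665), so that 3 genes were called higher in ACI without ACI rat 2 or without ACI rat 4. Higher in BN was *Cidea*, a lipid droplet protein (-1.51, adjusted p = 0.00868).

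**Figure D4:**
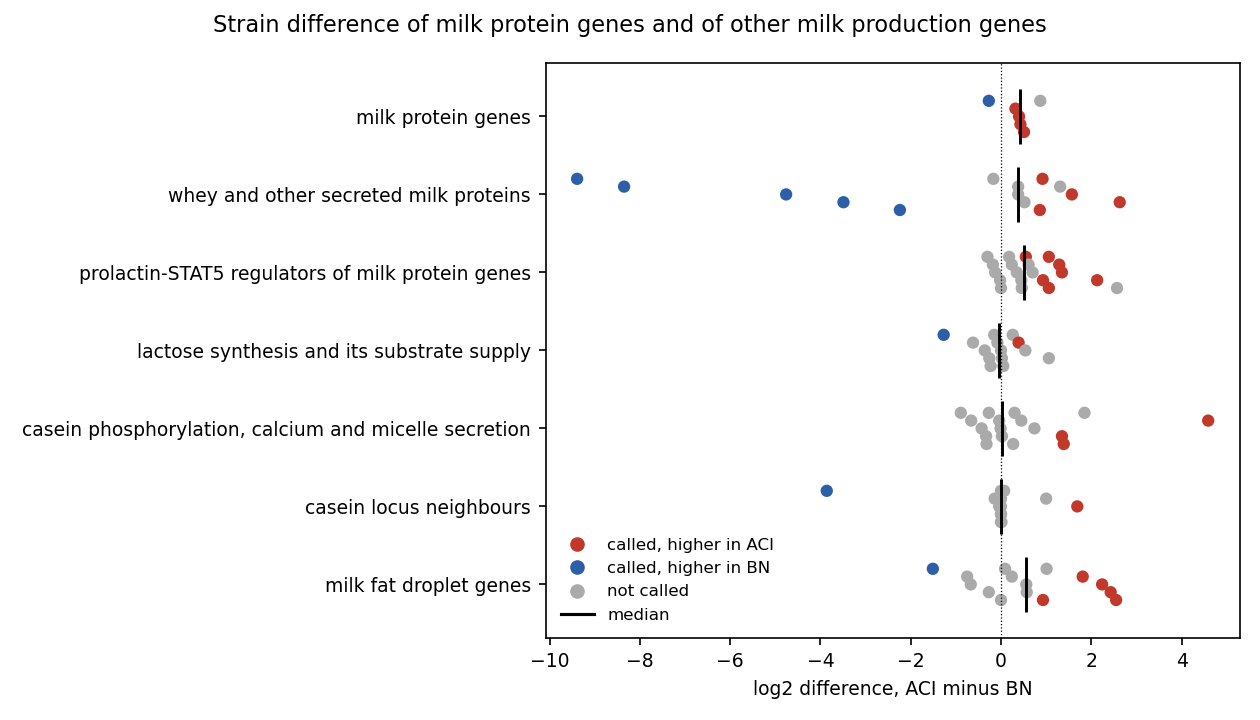
Log2 difference, ACI minus BN (horizontal axis), of each measured gene in 7 groups (rows): the 6 milk protein genes and 6 lists of related genes. Red and blue points were called higher in ACI and BN, grey points were not called, and black bars are medians; the vertical offset of points within a row has no meaning. The median of the prolactin-STAT5 regulators of milk protein genes is 0.50 and that of lactose synthesis -0.04.

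Markers of the cells in the gland are given beside these results. Over all genes 8.29% were called higher in ACI and 9.12% higher in BN. Of 13 luminal epithelial markers 4 were called, each higher in ACI, and their mean was 8.75 to 9.19 in ACI and 8.07 to 8.69 in BN rats. The 4 were *Epcam* (0.74), *Krt18* (1.02), *Cldn3* (1.92) and *Prom1* (3.64). Of those not called, *Cldn7* differed by 2.09 (adjusted p = 0.0871), *Kit* by 0.62, *Cdh1* by 0.35 (adjusted p = 0.0664) and *Krt8* by 0.22. *Cldn4* differed by -0.01, *Krt19* by -0.18 and *Krt7* by -1.53 (adjusted p = 0.0712). *Esr1* and *Foxa1* were at the lowest value on every array. Myoepithelial markers had means of 8.25 to 8.65 in ACI and 7.70 to 8.34 in BN rats, with 2 of 8 called higher in ACI. Adipocyte markers had means of 9.02 to 10.18 and 9.50 to 10.44, with 1 of 9 called higher in BN. B and plasma cell markers were at 2.94 to 3.07 in ACI and 4.32 to 8.71 in BN rats, with 8 of 8 called higher in BN, and T cell markers at 4.56 to 5.02 and 5.03 to 8.11, with 6 of 10 called. Skeletal muscle markers varied from 6.90 to 11.53 in ACI and from 3.45 to 10.38 in BN rats, with 0 of 15 called. Their median difference was 3.74, the largest toward ACI of these marker lists. The part of these cells in the milk protein differences was not tested.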

How the data were processed

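Log2 expression per probe set was used as deposited; the authors summarized the arrays with GCRMA 2.18.1, as the submitters' processing notes state, and kept 2 decimals. The sources used here do not say which arrays were normalized jointly. Values of different probe sets are not comparable as amounts of transcript. After 57 control probe sets were left out, a limma 3.58.1 fit (R 4.3.3) compared the strains, strain being the only term, on all 31042 probe sets; Benjamini-Hochberg adjustment covered all of them, and every adjusted p is from this fit unless another is named. No value was filtered. Array number limits the precision, and limma p-values weigh a strain difference against the spread between rats within a strain. They take no account of any difference between the 2 deposits.

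The study's methods name Student's two-sided test in general and refer to an earlier publication for the arrays; limma was taken as the test for log2 array values. Genes were named from GEO's annotation of the platform, and a RefSeq table gave current symbols through the gene ID: 20826 probe sets have 1 symbol (20758 of them matched by gene ID), 436 several and 9780 none. In lists, a gene was represented by its brightest probe set, judged by the mean of all arrays. Near background means that all rats of a strain were under 4. Named were all members, per list and direction the 3 called genes that changed most, marker list means with defining markers, and genes most like a member in pattern; *Elf5*, *Prlr*, *Wap*, *Cish*, *Stat5b*, *Olah*, *Acly*, *Clu*, *Slpi*, *Lyz2*, *Jak2*, *Nr3c1*, *Slc2a1*, *Sult1e1*, *Cabs1* and *Rpl7a* were chosen after their values were seen. Members and lists were chosen with earlier results of these data known. Promoters are RefSeq's (GRCr8), found for all 8 genes; motif positions count from the base before the start as -1.

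The fit was tested on simulated data. The alternatives were a replicate block, the ID series as a block or alone, a filter and a floor at 4, a ceiling at 14, quantile normalization and centring. Others were the tests of Student and Welch, a trended and robust variance, array weights and averaging of a gene's probe sets. Probe sets with names ending in _s_at, _x_at or _a_at were also left out, as was each rat in turn. Leaving out BN rats 4 and 5 was chosen after seeing the data.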

Additional observations from a re-analysis of the deposited data

Results flagged for a closer look

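In no milk protein gene did a rat's gap to the next exceed Dixon's 95% critical value. Of 73 gene and strain groups of 5 rats examined, over the members and the named genes of the lists, 2 had one rat beyond it, which chance gives in about 1 group in 20. *Sult1d1*, beside the casein genes, was at 4.88 in ACI rat 1, below the 6.03 to 6.30 of the other ACI rats. *Jchain* was at 10.93 in BN rat 4, above the 10.41 to 10.50 of the other BN rats.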

How the results depend on the processing

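No direction reversed under any alternative run in the 6 members or in the 31 list genes for which alternatives were computed; the cell markers, *Rpl7a*, *Jak2*, *Nr3c1*, *Slc2a1*, *Sult1e1* and *Cabs1* were not among them. Against 5 members called (4 higher in ACI, 1 higher in BN), the count was 2 (2 and 0) with the replicate block, after centring and by Welch's test, 3 (3 and 0) with a mean of at least 4, quantile normalization, a trended and robust variance or without BN rats 4 and 5, 0 (0 and 0) in ID series H alone and with a ceiling at 14, and 0 higher in BN with a floor at 4 and by Student's test; leaving out each rat in turn gave 3 to 4, with 3 to 4 higher in ACI and 0 to 1 higher in BN. The ceiling sets all values of the caseins and *Glycam1* to 14 and so leaves them no difference, and ID series H has 2 rats per strain, where Student's test called 0 members too; for the rest the cause was not tested. *Csn1s1* kept its call in 23 of 25 alternatives, *Glycam1* in 22, *Csn2* in 21, *Csn3* in 7 and *Lalba* in 5, so the calls of *Csn3* and *Lalba* rest on the settings. *B4galt1* was called in none (adjusted p = 0.0598 to 0.437). Of the genes of the 6 lists 29 were called, 18 with the replicate block, 0 in series H alone, 45 with array weights and 22 to 32 without each rat. Calls over all 31042 probe sets moved the same way from 3930 in the main fit. They were 1926 with the replicate block, 100 in series H alone, 8823 with array weights and 2598 to 4618 without each rat. Same-numbered rats correlated in their deviations at -0.255 to 0.226, and differently numbered rats at -0.269 to 0.308. These values gave no sign of pairs, which they cannot exclude, and the main fit left the replicate block out. With that block, the limma adjusted p was 0.00425 for *Csn1s1*, 0.0303 for *Glycam1*, 0.0841 for *Csn2*, 0.0752 for *Csn3* and 0.1 for *Lalba*. Within ID series S the exact permutation test cannot go below 0.1. Signal near the top of the scale limits what these arrays show of the 5 secreted proteins.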
